A study of Mus musculus with 24 samples.

Results

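Cd209a-positive type 2 dendritic cells were examined in Panc02 pancreatic tumors of mice given the neoantigen vaccine PancVAX and checkpoint antibodies. The cells were chosen by their counts. A barcode was a member if it had at least 1000 unique molecular identifiers (UMIs) and less than 10% mitochondrial UMIs, at least 2 UMIs of Cd209a and at least 3 of H2-Aa, no UMI of Xcr1, Clec9a, Ccr7, Cd3d, Cd3e, Cd3g or Cd79a, and fewer than 10 UMIs of C1qa, C1qb and C1qc per 10000. Of 120912 barcodes that passed the UMI and mitochondrial limits, 306 were members.

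Conventional dendritic cells take up antigen and present it on MHC class I and class II molecules to T cells. The type 1 lineage, marked by Xcr1 and Clec9a, is specialized for cross-presentation to CD8+ T cells, whereas the type 2 lineage is known for class II presentation to CD4+ T cells. Both arise from precursors that depend on the cytokine receptor Flt3, and both can mature into Ccr7-positive cells that travel to the draining lymph node.

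Male C57BL/6 mice of 6 to 7 weeks were implanted s.c. with Panc02 cells, a mouse pancreatic cancer line, and tumors were taken on day 38 by the methods, although a legend gives an earlier day. Tumors were pooled by treatment into 8 pools: PancVAX, PancVAX + Anti-PD-1, PancVAX + Anti-CTLA-4, PancVAX + Anti-PD-1 + Anti-CTLA-4, Anti-PD-1, Anti-CTLA-4, Anti-PD-1 + Anti-CTLA-4, and Isotype Control. PancVAX is a mixture of Panc02 neoantigen peptides with the adjuvant AddaVax and a STING agonist, given on days 12 and 19, and mice without it received PBS. Anti-PD-1 (100 μg, from day 12) and anti-CTLA-4 (100 μg, days 15 and 22 by the methods, with the second dose dated earlier in the legend) were replaced by isotype antibodies in mice without them. Each pool gave 1 library of the whole tumor suspension and 1 of Percoll-enriched immune cells, and the preparation was also the sequencing batch, so both cannot be told apart. The 16 libraries held 77132398 to 176233225 UMIs. All animals of a treatment shared 1 pool, so that P values measure the spread between pools and not between animals.

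The libraries held 7 to 41 member cells each. A member had a median of 9494.5 UMIs (range 1356 to 80482) and 2419 genes, against 13438 UMIs in 707 type 1 dendritic cells, 7776 in 261 mature Ccr7 dendritic cells, 5177 in 285 Ccr2 Ly6c2 monocytes, and 5447 in 15038 C1q macrophages, which were chosen by similar limits. Of the members, 142 (46.4%) had more than 10000 UMIs, the upper limit used in the study, and 31 (10.1%) had more than 3 UMIs of tumor or stromal cell genes. This count, here and below, left out Epcam and did not hold Cdh1. No doublet caller was run. Barcode sequences recurred between libraries (8502 of 111955 sequences), and 38 of the 306 members had a sequence that was also found in another library, of which 1 sequence was a member in both. The first count is of sequences and the second of cells, so they are not compared. The share over all cells was not counted, and nothing is read from that of the members. T cell receptor contigs were found in 0 of 151 members of the Percoll libraries, which allows a share of up to 1.99%, and in 68.3% of 11678 cells with a Cd3 UMI.

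The label was then compared with the cells. Cd209a (mouse genome mm10, chromosome 8, 3743395 to 3748984), which encodes a C-type lectin related to human DC-SIGN, had a median of 5 UMIs per cell (range 2 to 51). H2-Aa (chromosome 17, 34282744 to 34287823), the alpha chain of a class II molecule, had a median of 117 UMIs and a lowest value of 6. Flt3, which the rule did not use, was at 49.0 UMIs per 1000000 UMIs of the summed cells (CPM) in the members and at 104 CPM in type 1 dendritic cells, with 0 UMIs in the monocytes, from which it was barred. Over the 8 pools Flt3 ranged from 38.1 to 69.8 CPM in the members. Clec10a, a lectin for galactose-type sugars, was at 154 CPM, against 51.6 CPM in type 1 dendritic cells, 22.4 CPM in monocytes, and 22.8 CPM in macrophages. It varied widely, from 29.6 CPM in the Anti-PD-1 pool to 280.0 CPM in the PancVAX + Anti-CTLA-4 pool, and was seen in 44.4% of member cells. Irf4, a transcription factor of the type 2 lineage, was at 46.8 CPM against 1.54 CPM in type 1 dendritic cells, while Irf8, which the type 1 lineage requires, was at 82.6 against 1645 CPM. Clec10a was above type 1 dendritic cells in 7 of 8 pools, and Flt3 was found in 35.0% of the members and 64.1% of type 1 dendritic cells.

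Cells at the edges of the rule had similar profiles for some genes. The 129 cells with 1 UMI of Cd209a, just outside, had 62.9 CPM of Clec10a, and the 76 cells with 2 UMIs, just inside, had 75.4 CPM. The 186 members with 4 or more had 201 CPM. No member had 3 to 5 UMIs of H2-Aa, and 5 cells with 1 or 2 UMIs were outside. Only 1 cell was barred by 10 to 20 C1q UMIs per 10000. Another 50 cells met every limit apart from Xcr1 and Clec9a, 45 apart from Ccr7, and 18 apart from Cd3. Their Il1r2 levels were 1330 CPM, 2048 CPM, and 846 CPM, and the members' level was 1175 CPM.

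The genes that set the members apart were ranked by the ratio of their CPM to the highest of type 1 dendritic cells, monocytes, and macrophages. Cells of these classes were chosen by their RNA, and the ranking is a description with no test. After Cd209a (631 CPM) came Ctnnd2, a delta-catenin (72.8 CPM), Ffar2, a receptor for short-chain fatty acids (85.1 CPM), and Ifitm1, an interferon-induced membrane protein (2529 CPM). They were followed by the adhesion molecule Cdh1, E-cadherin (96.6 CPM), the interleukin 1 decoy receptor Il1r2 (1175 CPM), and the adhesion molecule Epcam (129 CPM). Klrd1, the CD94 subunit of lectin receptors of NK cells, was at 202 CPM, the lectin Mgl2 at 371 CPM, and H2-DMb2, a beta chain of the class II peptide loader, at 455 CPM. Cd209a is a gene of the rule and was barred from these 3 classes, and the other 14 genes were picked for this same ratio, so nothing is read from their order. Against mature dendritic cells, Siglecg was higher in 7 pools, Gpr183, an oxysterol receptor, in 5, Tnip3 in 4, and Rrad in 1. Mgl2 and Clec10a are close paralogs, as are H2-DMb1 and H2-DMb2, and the division of reads within each pair is uncertain.

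**Figure D1:**
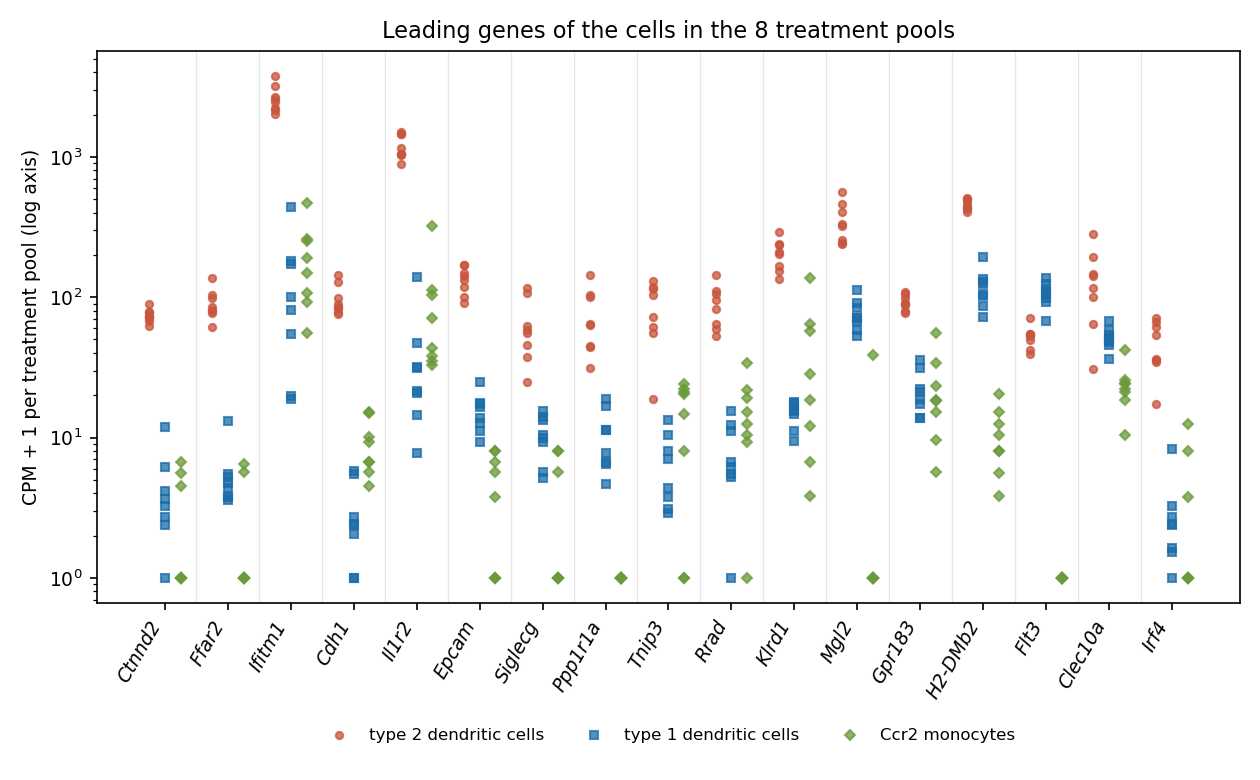
Levels (CPM plus 1, log axis) of 14 leading genes and of Flt3, Clec10a, and Irf4 in type 2 dendritic cells, type 1 dendritic cells, and Ccr2 monocytes. Each point is 1 of 8 pools. Ifitm1 lay between 2015 and 3779 CPM in type 2 cells and at no more than 437 CPM in type 1 cells.

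Ifitm1 was among the most abundant of these transcripts. In the pools with PancVAX it was at 3216 CPM (PancVAX), 2589 CPM (PancVAX + Anti-PD-1 + Anti-CTLA-4), 2471 CPM (PancVAX + Anti-PD-1), and 2160 CPM (PancVAX + Anti-CTLA-4). Without PancVAX it was at 2015 CPM (Anti-PD-1 + Anti-CTLA-4), 2229 CPM (Anti-CTLA-4), 2659 CPM (Anti-PD-1), and 3779 CPM (Isotype Control). The groups overlapped, with the highest value in the Isotype Control pool. Ifitm1 was found in 82.4% of members and in 12.4% of type 1 dendritic cells, and with every cell thinned to 1000 UMIs in 61.4% and 4.7%.

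Il1r2 was found in 84.0% of members, 9.9% of type 1 dendritic cells, and 20.5% of macrophages. After thinning to 1000 UMIs the shares were 53.3%, 2.3%, and 7.2%, and that of monocytes was 6.0%. By pool Il1r2 was at 1509 CPM with PancVAX alone, 1149 CPM with PancVAX and both antibodies, 1459 CPM with PancVAX and anti-PD-1, and 895 CPM with PancVAX and anti-CTLA-4. Without PancVAX it was at 1044 CPM with both antibodies, 1040 CPM with anti-CTLA-4, 1030 CPM with anti-PD-1, and 1460 CPM with isotype control. Such sums weigh barcodes by their UMIs, and subgroup 5 of 28 deep barcodes, described below, had 234 CPM of Il1r2. All 8 pools exceeded the highest value of any comparison class, 318 CPM in a monocyte pool. Il1r2 is also a neutrophil gene. Of 10 neutrophil markers, Il1r2 included, 7 were above 0 in the members and 3 (Retnlg, Ly6g, and Mmp9) were at 0, and Il1r2 made up nearly the whole sum of the list. The 9 others summed to 0 to 206 CPM per pool (median 12.9 CPM), against 2.58 to 245 CPM in type 1 dendritic cells (median 14.7 CPM).

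Epcam and Cdh1 are also epithelial genes. Epcam was found in 43.8% of members, 13.0% of type 1 dendritic cells, and 0.4% of macrophages, and Cdh1 in 47.4%, 1.8%, and 0.9%, whereas the keratin gene Krt18 was found in 16.3%, 21.6%, and 15.0%. The summed level of 8 epithelial markers, Epcam included, was 213 to 925 CPM per pool in the members and 58.2 to 1219 CPM in type 1 dendritic cells, and that of 8 stromal markers 41.4 to 754 CPM and 91.8 to 3206 CPM. In subgroups of members that had at most 1 cell with more than 3 tumor or stromal UMIs, described with the other subgroups, Epcam reached 79.6% and Cdh1 77.6% of the cells. Neither gene was part of that UMI count, so the count says nothing on the source of their UMIs.

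Among the class II genes, the main chains were close to the levels in type 1 dendritic cells. H2-Ab1 was at 8199 CPM against 8048 CPM, Cd74 (invariant chain) at 29996 against 27700 CPM, and H2-DMa at 815 against 852 CPM. H2-Oa, a chain of the H2-O molecule that restrains peptide loading, was at 346 CPM against 132 CPM, higher in 8 of 8 pools. Sirpa, an inhibitory receptor for CD47 found on type 2 cells, was at 84.0 against 3.18 CPM, and Fcer1g, the common Fc receptor gamma chain, at 1125 against 64.6 CPM. These do not set the members apart from other myeloid classes. Sirpa was found in 57.8% of members, 47.7% of monocytes, and 68.0% of macrophages. The 7 Fc receptor genes summed to 1125 to 1726 CPM per pool in members, 2875 to 4831 CPM in monocytes, and 6364 to 7290 CPM in macrophages. The type 1 genes Naaa (124 against 1085 CPM) and Batf3 (91.3 against 172 CPM) were lower in the members in all 8 pools. The 10 listed type 1 markers summed to 545 to 1030 CPM per pool in the members and 3977 to 5430 CPM in type 1 dendritic cells. That list holds Xcr1 and Clec9a, which the rule barred, so this gap is partly set by the choice of cells. Itgae, also on the list, was found in 93.9% of subgroup 4 of the members and in 0 of 83 cells of subgroup 1, both described below. Il1b, the cytokine interleukin 1 beta, was at 2352 CPM in the members, 309 CPM in type 1 dendritic cells, and 1738 CPM in monocytes.

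Markers of other cell types were summed by pool. Monocyte markers summed to 2310 to 3328 CPM in the members, above every type 1 pool (1036 to 1775 CPM) and below every monocyte pool (14473 to 34575 CPM). Plasmacytoid dendritic cell markers summed to 535 to 890 CPM, against 365 to 675 CPM in type 1 dendritic cells, 510 to 1493 CPM in monocytes, and 601 to 700 CPM in macrophages. T cell markers summed to 5.92 to 76.8 CPM, NK cell markers to 0 to 105 CPM, and B cell markers to 54.4 to 123 CPM, with Pax5 and Ms4a1 at 0. The T and B cell lists include Cd3 genes and Cd79a, which the rule barred, and the monocyte list includes Ccr2 and Ly6c2, by which the monocytes were chosen, so these gaps are partly set by the choice of cells. The 12 macrophage markers other than the C1q genes, which the rule limited, summed to 551 to 3129 CPM, with the highest value in a pool without PancVAX, against 13607 to 18540 CPM in macrophages. Apoe, an abundant macrophage transcript, was at 40.3 CPM against 12156 CPM.

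The members were not uniform, and Leiden clustering placed them in 7 subgroups. Genes were used to form the subgroups, so their differences are a description. Subgroup 1 (83 cells) was led by Lyz2 (lysozyme), Ccl9, and Ccr2, the receptor for Ccl2. Its Lyz2 level was 2263 CPM against 154 CPM in the other members, and Ccr2 was found in 66.3% of its cells against 10.3%. Cd209a itself was at 1714 against 411 CPM, Clec10a at 450 against 94.1 CPM, and Cd14, a coreceptor for lipopolysaccharide, at 322 against 58.2 CPM. In contrast, Epcam was found in 2.4% of its cells against 59.2%, and Itgae, the integrin CD103, in 0 of its 83 cells, which allows up to 3.61% of cells with a UMI, against 63.2%. The median depth of subgroup 1 was 6786 UMIs and that of subgroups 2 to 4 was 9851 to 10899, so these shares are of cells with a UMI and not of cells expressing a gene.

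Subgroup 2 (68 cells) was led by Isg15, an interferon-induced ubiquitin-like protein, at 947 against 266 CPM, and by the heat shock gene Hspa1a. Subgroup 3 (55 cells) was led by Klrk1, Grasp, and Gpr171 and included Klrd1, the costimulatory ligand Cd80, and Cdh1 among its leading genes. Subgroup 4 (49 cells) was led by Cwc25, Mmp12 (macrophage elastase), and Ltc4s (leukotriene C4 synthase). In this subgroup Il1r2 was at 2800 against 883 CPM, Itgae was found in 93.9% of cells, and Epcam in 79.6%. Il1r2 was found in all cells of subgroups 3 and 4 and in 67.5% of subgroup 1.

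Subgroup 5 (28 cells) had a median of 30935.5 UMIs and was led by Ccn1, Spp1, and Tm4sf1, with Krt18 and Krt8. All 28 of its cells had more than 3 tumor or stromal UMIs, Krt8 was found in 96.4%, and the matrix gene Sparc in 100.0%. Whether these barcodes hold more than 1 cell was not tested. Il1r2 was at 234 CPM in subgroup 5 and 1518 CPM in the other members, and Cd209a at 241 and 774 CPM. It held 2, 3, 4, and 10 cells in the 4 pools with PancVAX, with 10 in PancVAX + Anti-CTLA-4, and 3, 1, 1, and 4 in the others. Its cells weigh on the summed levels by their UMIs. An alternative with at most 3 tumor or stromal UMIs and no Siglech, given below, kept 264 members. It left out all 28 cells of subgroup 5 along with some cells of other subgroups. The part of subgroup 5 alone in the pool levels and gene tests was not tested. Subgroup 6 (15 cells) was led by Hist1h2ae, Pclaf, and Birc5 of the cell cycle, with the proliferation gene Mki67 in 86.7% of its cells. Subgroup 7 (8 cells) was led by Siglech and Cox6a2, which are known from plasmacytoid dendritic cells, and Il1r2 was found in 12.5% of its cells. Subgroups 1 to 6 were present in 8 pools, and subgroup 7 in 7 pools. Subgroup 1 held 13, 9, 11, and 21 cells in the 4 pools with PancVAX and 9, 12, 2, and 6 cells in the others.

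**Figure D2:**
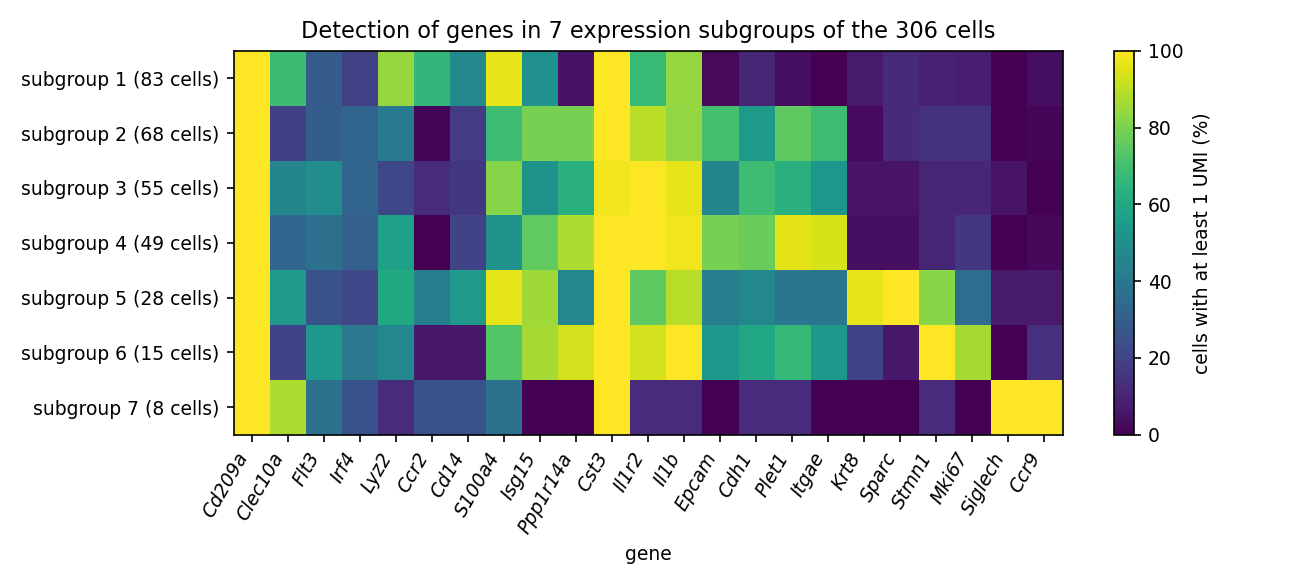
Share of cells with a UMI of selected genes (percent) in each of the 7 subgroups of type 2 dendritic cells. Epcam was found in 2.4% of subgroup 1 and in 79.6% of subgroup 4.

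Co-detection in single cells restates the clustering, which used these same cells, and is given as counts. Epcam was found in 9 of 78 cells with Ccr2 (11.5%) and in 54.8% of cells without it, although the median depth was 8571 UMIs in the first and 10036 UMIs in the second. Cd14 went the other way, in 51.3% of cells with Ccr2 and in 21.1% without. Epcam was found in 50.2% of cells with Il1r2 and in 10.2% of those without, but these had medians of 10157 and 5770 UMIs. After thinning to 1000 UMIs, Ccr2 was found in 23 cells, Epcam in 32, and both in 1 of 306, too few to read a relation from. These counts carry no test.

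The number of type 2 dendritic cells was compared first. Of all cells that passed the limits, 0.288% were members in the PancVAX pool, 0.266% with both antibodies added, 0.268% with anti-PD-1 added, and 0.357% with anti-CTLA-4 added, each the mean of 2 libraries. Without PancVAX the shares were 0.258% with both antibodies, 0.212% with anti-CTLA-4, 0.116% with anti-PD-1, and 0.227% with isotype control. By this mean every pool with PancVAX was above every pool without it. With the cells of both libraries summed the groups overlapped, since PancVAX + Anti-PD-1 (0.257%) was then below Anti-PD-1 + Anti-CTLA-4 (0.259%), and the exact permutation P was 0.0571. Over these 8 pools, 4 in each group, the share was 0.295% ± 0.043 (SD) with PancVAX and 0.203% ± 0.061 without. The difference was 0.0918 points (exact permutation test, two-sided, P = 0.0286, the smallest that 4 against 4 allows, 0.114 after Benjamini-Hochberg adjustment over 4 share tests). The groupings in this and the later tests between agents ignored the other agents, so pools alike in them were not matched. The nearest pools, at 0.258% and 0.266%, had overlapping exact binomial 95% intervals, and without the Anti-PD-1 pool, or without any 1 of the PancVAX pools, P was 0.0571 in the exact permutation test (difference 0.0628 to 0.101 points). With the upper limits of the study on genes and UMIs, which left 163 members, the difference was 0.0253 points (exact permutation P = 0.714), and in the Percoll libraries alone it was 0.0566 points (exact permutation P = 0.229).

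**Figure D3:**
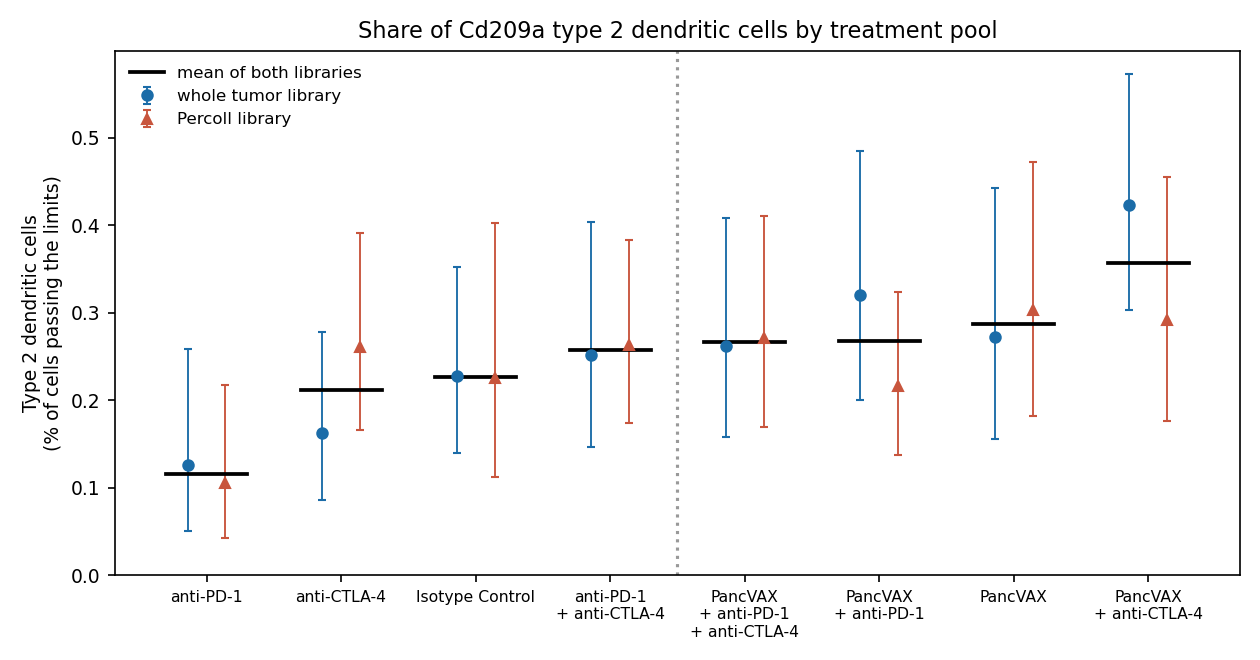
Share of type 2 dendritic cells among all cells that passed the limits (percent) by pool. Circles are whole tumor and triangles Percoll libraries with exact binomial 95% intervals, and black lines are the mean of both. The pools with PancVAX lie between 0.266% and 0.357%, and those without between 0.116% and 0.258%.

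Pools with anti-PD-1 and without had shares of 0.227% ± 0.074 and 0.271% ± 0.066 (SD, n = 4, exact permutation P = 0.486), and those with anti-CTLA-4 and without 0.273% ± 0.061 and 0.225% ± 0.077 (exact permutation P = 0.457). Percoll libraries had 0.242% ± 0.063 and whole tumor libraries 0.256% ± 0.092 (n = 8, exact sign-flip permutation P = 0.656). Without the Anti-PD-1 pool the anti-PD-1 difference went from -0.0438 to -0.0068 points and the anti-CTLA-4 difference from 0.0486 to 0.0124 points. With the upper limits of the study they were -0.103 and 0.117 points (exact permutation P = 0.143 and 0.0571). The difference between Percoll and whole tumor went from -0.0135 to -0.0871 points under the same limits (exact sign-flip permutation P = 0.0313, 0.114 after adjustment over 4 share tests), and turned to 0.00913 points with at least 3 UMIs of Cd209a.

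The share was then set against related cells of the same libraries, as the log2 ratio of cell numbers. Against Ccr2 monocytes, the ratio was 0.58 ± 0.16 with PancVAX and -0.39 ± 0.73 without (SD, n = 4, difference 0.98, exact permutation P = 0.0286, 0.0857 after adjustment over 3 ratios). The pools without PancVAX ranged from -1.05 in the Anti-PD-1 pool to 0.39 in the Anti-PD-1 + Anti-CTLA-4 pool, and all 4 pools with it were above them, at 0.44 to 0.81. Against type 1 dendritic cells the ratio was -1.07 ± 0.19 with PancVAX and -1.44 ± 0.55 without (difference 0.37, n = 4, exact permutation P = 0.229). Against mature dendritic cells the difference was 0.47 (exact permutation P = 0.257). Without the Anti-PD-1 pool these 2 differences were 0.11 and 0.27. With members limited to at least 3 UMIs of Cd209a, the differences were 0.52 against type 1 cells, 1.12 against monocytes, and 0.62 against mature cells, each with an exact permutation P = 0.0286 before and after adjustment over the 3 ratios. Without any 1 of the 4 PancVAX pools, the P value of the monocyte ratio was 0.0857 or above in the exact permutation test. Without the limits on Cd3 and C1q in every class, 342, 1987, and 2173 barcodes met the other limits of the type 2, type 1, and monocyte classes. With the limits these counts were 306, 707, and 285, so every added barcode had a Cd3 UMI or C1q at or above the limit. The difference then turned to -1.76 (exact permutation P = 0.0286, 0.0429 after adjustment over 3 ratios), which is not a ratio to monocytes as defined above. Which of these limits turned it was not tested.

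UMIs of the members were next summed by pool and tested for each agent, with the other agents as covariates. A gene was called at an adjusted P value below 0.05 (edgeR quasi-likelihood test, Benjamini-Hochberg) and an absolute log2 fold change above 0.5. None of 4396 genes was called for PancVAX (0%), anti-PD-1 (0%), or anti-CTLA-4 (0%). At an unadjusted P below 0.05 there were 161, 156, and 112 genes, and DESeq2 called 0, 2, and 0. The median SE of the log2 fold change was 0.27 for each agent.

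The class II genes H2-Ab1, H2-Eb1, and Cd74 had log2 fold changes between -0.12 (H2-Eb1, anti-PD-1) and 0.02 (H2-Eb1, PancVAX) for the 3 agents. H2-Ab1, for example, was at 9076, 8301, 8400, and 7117 CPM in the PancVAX pools and at 8118, 9500, 7561, and 8511 CPM in the others. Over 12 class II presentation genes the median PancVAX difference was 0.01 (7 positive, 5 negative, 0 called), against a median of -0.0024 over all genes. Over 19 type I interferon-stimulated genes it was -0.02 and over 16 interferon gamma-induced genes 0.08, with 0 called in each. The medians of 12 costimulatory and checkpoint ligands and of 5 markers of mature dendritic cells were both 0.10. Of 15 conventional dendritic cell genes, 7 had positive and 8 negative values.

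**Figure D4:**
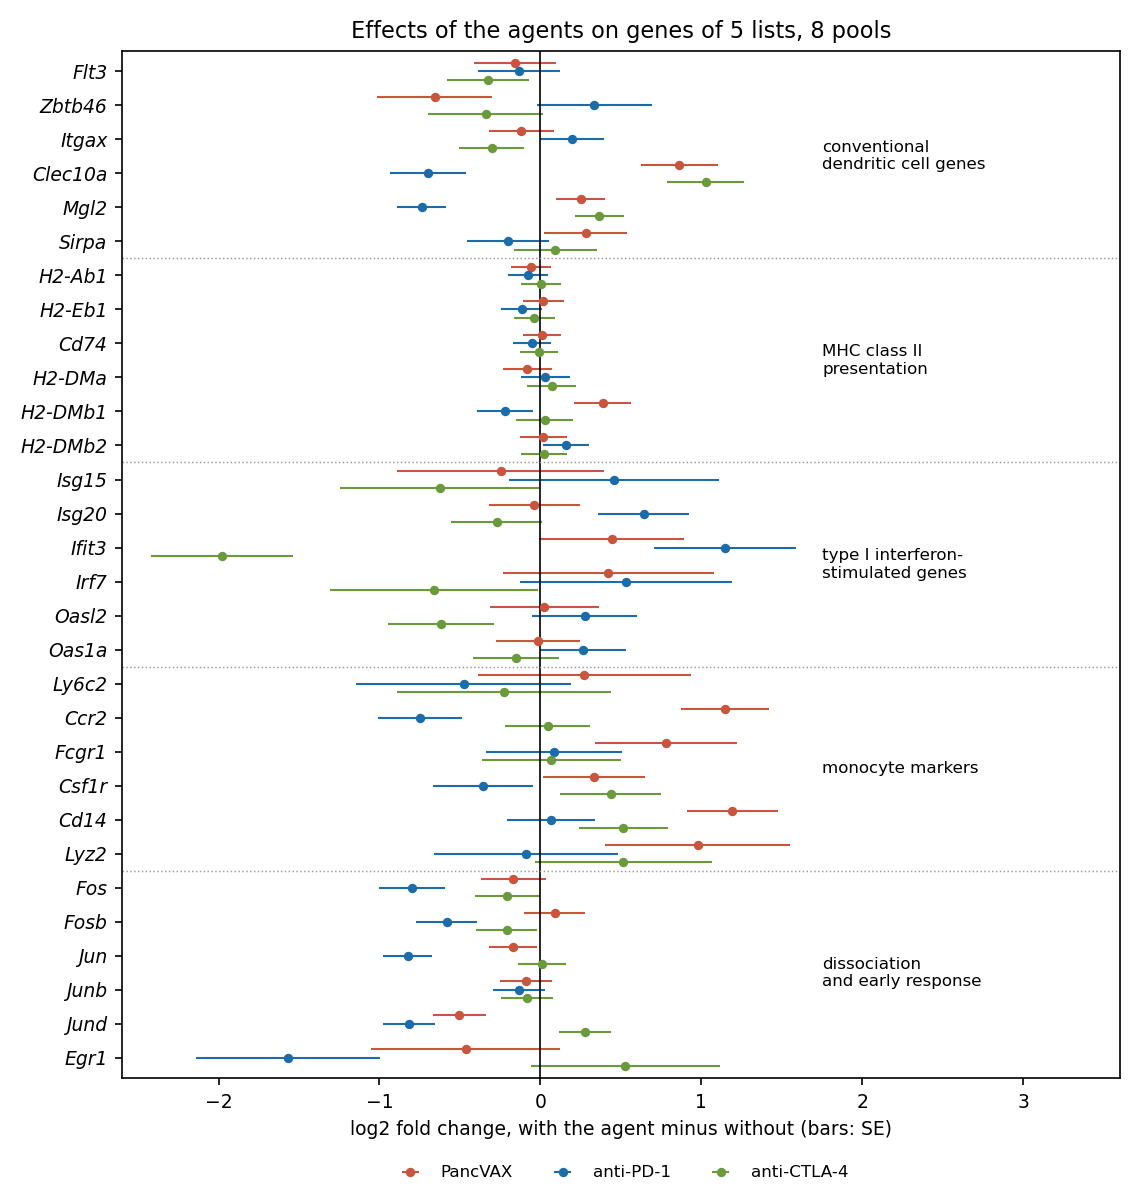
Log2 fold changes of the first 6 tested genes of 5 lists for each agent over 8 pools, with bars of 1 SE. H2-Ab1, H2-Eb1, and Cd74 lie near 0, while Ccr2 and Cd14 lie at 1.15 and 1.19 for PancVAX and Jun at -0.83 for anti-PD-1. None of these differences was called.

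Of 10 tested monocyte markers, 8 had positive PancVAX values with a median of 0.56, and 0 were called. The 1 tested stromal marker, the matrix gene Sparc, moved with PancVAX as well, at 147 to 606 CPM in the pools with it and 21.0 to 189 CPM in those without (1.91 ± 0.91 SE, not called), and its part in the monocyte gene values was not tested. Ccr2 was at 93.3, 59.9, 61.2, and 86.2 CPM in the 4 PancVAX pools and at 21.8, 53.9, 17.8, and 39.5 CPM in the 4 others, which did not overlap (log2 fold change 1.15 ± 0.27 SE, edgeR adjusted P = 0.654). How many of the 4396 genes separated the pools in this way was not counted, so nothing is read from it. Cd14 was at 87.8 to 164 CPM and at 33.4 to 95.9 CPM, which overlapped (1.19 ± 0.28, edgeR adjusted P = 0.654), and Lyz2 differed by 0.98 ± 0.57. Clec10a was at 115 to 280.0 CPM with PancVAX and at 29.6 to 192 CPM without (0.86 ± 0.24, edgeR adjusted P = 0.831). Subgroup 1, in which Ccr2 was found in 66.3% of the cells, made up 54 of 181 members with PancVAX and 29 of 125 without. Its part in these values was not tested. With the upper limits of the study, 9 of 1777 genes were called, among them Ccr2 (1.51), Cd14 (2.39), and Clec10a (1.06), in 7 pools with at least 10 cells. Without the filter on low counts Ccr2 (edgeR adjusted P = 0.043) and Cd14 (edgeR adjusted P = 0.0029) were called, and without the Anti-CTLA-4 pool Cd14 and Cxcl5. In the Percoll libraries alone Ccr2 differed by 0.28 and Cd14 by 0.73, and neither was called.

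For anti-PD-1, the early response genes, which cells switch on within minutes of stimulation or of tissue dissociation, were mostly negative. Of 22 tested, 17 had negative values, the median was -0.57 against -0.0011 over all genes, and 0 were called. The list was not tested as a set. Jun was at 464, 498, 633, and 563 CPM in the pools with anti-PD-1 and at 875, 1047, 803, and 1090 CPM in those without, with no overlap (-0.83 ± 0.15, edgeR adjusted P = 0.12). The share of all tested genes that separated these pools was not counted either, so nothing is read from the lack of overlap. DESeq2 called Jun (adjusted P = 0.029) and Gas1, and Jun was also called by edgeR without the filter on low counts (adjusted P = 0.0083). Among cells with at most 3 tumor or stromal UMIs and no Siglech, a limit set after seeing the data, Jun differed by -0.36. Mgl2 was at 322, 253, 241, and 237 CPM with anti-PD-1 and at 403, 564, 461, and 334 CPM without, again with no overlap (-0.74 ± 0.15, edgeR adjusted P = 0.16). In the cells with few tumor or stromal UMIs Mgl2 was called (-0.73, edgeR adjusted P = 0.022), with Ccrl2, Tmem176a, and Tmem176b. Over 19 alternatives Mgl2 ran from -1.05 to -0.31, and this was the only 1 that called it.

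For anti-CTLA-4, Clec10a had the value 1.03 ± 0.24 (edgeR adjusted P = 0.652), with 99.7 to 280.0 CPM in the pools with the antibody and 29.6 to 140 CPM in those without. Of 19 interferon-stimulated genes 15 were negative, with a median of -0.27 against 0.012 over all genes and 0 called, and this list was not tested as a set. Ifit3, an interferon-induced antiviral gene, was at 26.6, 3.8, 7.3, and 12.0 CPM with anti-CTLA-4 and at 27.4, 75.2, 41.4, and 30.4 CPM without (-1.98 ± 0.44, edgeR adjusted P = 0.577). These pools did not overlap, although the nearest values differed by less than 1 CPM, and the share of all genes that did so was not counted. Without the filter on low counts both were called, Clec10a at 1.06 (edgeR adjusted P = 0.0097) and Ifit3 at -1.93 (edgeR adjusted P = 0.0052). No other alternative called them, and Clec10a ran from 0.61 to 1.36 over 19 and Ifit3 from -2.47 to -1.58 over 14.

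The Percoll and whole tumor libraries were compared within 7 treatments, since the Anti-PD-1 libraries held 7 members each and were left out. Of 2928 genes, 5 (0.171%) were called, and all were higher in the Percoll libraries, in 7 of 7 pairs. Il1r2 rose by 1.38 ± 0.16 (SE, edgeR adjusted P = 0.0013). In these 7 pairs its levels were 1285 to 2525 CPM in the Percoll libraries and 425 to 1087 CPM in the whole tumor libraries. With the Anti-PD-1 pair, given below, the ranges overlapped. How many of the 2928 genes separated the libraries of the 7 pairs was not counted, so nothing is read from these ranges. Rgs1, a regulator of G protein signaling, rose by 1.28 ± 0.16 (mean 1608 against 659 CPM, edgeR adjusted P = 0.0013), and Gadd45b, a stress-inducible gene, by 1.19 ± 0.16 (252 against 106 CPM). Bhlhe40, a transcription factor, rose by 0.88 ± 0.14 (690 against 370 CPM, edgeR adjusted P = 0.012).

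**Figure D5:**
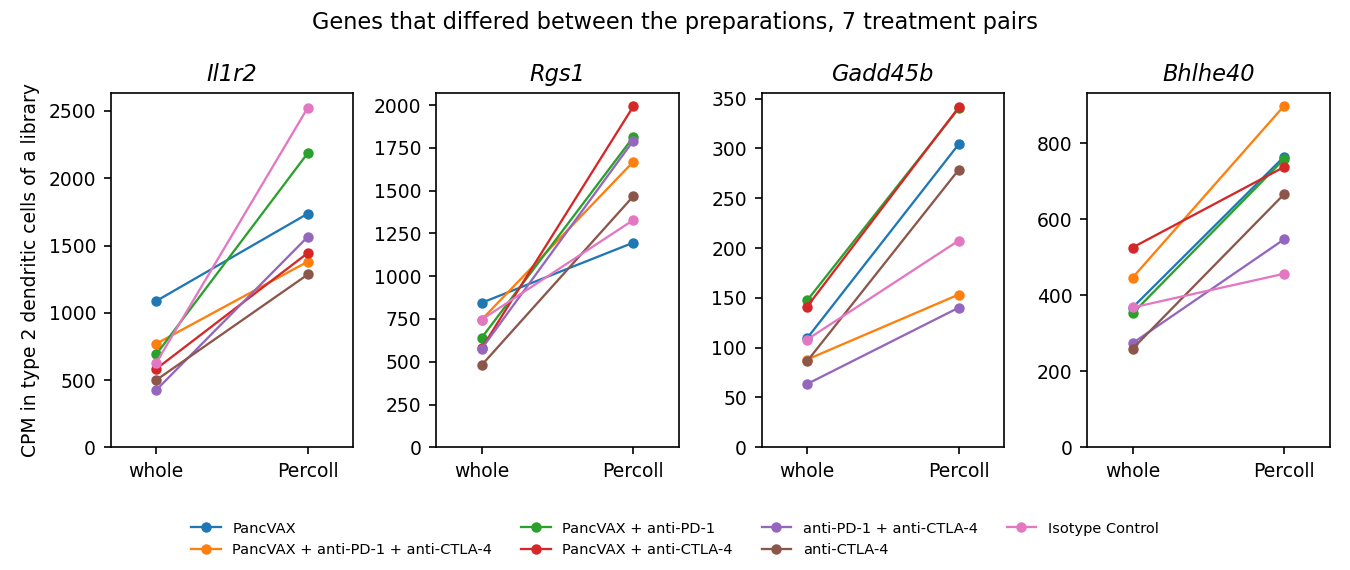
Levels of 4 of the genes called between preparations (CPM) in type 2 cells of both libraries of 7 treatments. Lines join the 2 libraries of a treatment, and each gene is higher in Percoll in 7 of 7 pairs.

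In the Anti-PD-1 pair, which was not in the fit, Il1r2 was at 915 CPM in Percoll and 1235 CPM in whole tumor and Rgs1 at 767 and 1202 CPM, the opposite order, with 99 and 75 UMIs of Il1r2. Of 22 early response genes 21 were tested, 12 with positive and 9 with negative values, and 0 were called. Of 12 class II presentation genes 11 were positive, with a median of 0.19 and 0 called, and of 9 costimulatory and checkpoint ligands all were positive, with a median of 0.43 and 0 called. The median over all genes was -0.0032, and neither list was tested as a set. Flt3 (0.38 ± 0.31) and Clec10a (0.18 ± 0.27) did not pass the test. Among cells with at most 3 tumor or stromal UMIs and no Siglech, 34 of 2060 genes were called, 25 of them higher in Percoll, and without the limits on low counts 74 were called. With the upper limits of the study 1 gene, Il1r2, was called, and without the PancVAX + Anti-PD-1 pair or the Anti-CTLA-4 pair 3 genes (Gadd45b, Il1r2, and Rgs1) were.

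The PancVAX difference was then tested between type 2 cells and their relatives. Against type 1 dendritic cells none of 7390 genes was called (0%), with 208 at an unadjusted P below 0.05 and 0 called by DESeq2. Against Ccr2 monocytes 3 of 4900 genes (0.0612%) were called, and DESeq2 called 0. All 3, Ccl2, Cxcl1, and S100a8, rest on few UMIs in the members, and Cxcl1 and S100a8 on a few monocyte pools as well. Ccl2, a chemokine for Ccr2-bearing cells, had 4, 36, 3, and 38 UMIs in the members of the PancVAX pools and 1, 3, 1, and 1 in the others, against 70 to 77 and 43 to 242 in monocytes (2.93 ± 0.53, edgeR adjusted P = 0.03). Cxcl1, a neutrophil-attracting chemokine, had 4, 15, 10, and 29 UMIs in the members with PancVAX and 2, 0, 1, and 0 without, while monocytes had 1, 0, 0, and 15 with PancVAX and 52, 13, 0, and 3 without (8.98 ± 1.35, edgeR adjusted P = 0.015). S100a8, a neutrophil gene, was found in 2 members, with 39 UMIs in a single barcode of the PancVAX + Anti-PD-1 pool, 1 in the PancVAX + Anti-PD-1 + Anti-CTLA-4 pool, and 0 in the other members (10.2 ± 1.07, edgeR adjusted P = 1.23e-04). Without these 2 cells, an alternative chosen after seeing the data, Ccl2 and Cxcl1 were called. In monocytes most of its UMIs were in the Anti-PD-1 pool (1204 CPM), followed by the PancVAX + Anti-CTLA-4 pool (296 CPM) and the Anti-CTLA-4 pool (91.5 CPM). A fold change fitted against pools at 0 depends on the prior count and is no bound. Without the PancVAX + Anti-PD-1 pool the value of S100a8 was 0.19 and 0 genes were called, and without the Anti-PD-1 pool it was -1.50.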

How the data were processed

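Tumor cells of 8 treatment pools were sequenced in 16 RNA libraries with 5′ chemistry, and the T cell receptors of the 8 Percoll libraries were sequenced as well. The authors deposited 1 matrix of whole UMI counts for all 16 libraries, which are told apart by the number that ends each barcode, made with Cell Ranger 4.0.0 on mm10 per the submitters' processing notes. The deposited receptor tables give counts of reads and UMIs per contig and were used only for the presence of a contig.

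Members and gene lists were chosen with earlier results of these data known. UMIs were summed by pool or library, leaving out sums of fewer than 10 cells and the genes of the rule. Sums were tested with edgeR 4.0.16 (TMM, filterByExpr, robust quasi-likelihood, two-sided, R 4.3.3). All P values across genes are from edgeR unless DESeq2 1.42.0 is named. Each agent was fitted over 8 pools with the other agents as covariates, and the preparations with treatment as a block, since both libraries of a treatment come from 1 pool. CPM are UMIs per 1000000 UMIs of the summed cells. Shares and log2 cell ratios were compared by exact permutation tests over 70 groupings or 256 sign flips in scipy 1.17.1. The 70 groupings took no account of the other agents. Intervals and limits for a count of 0 (3 counts) cover counting error only. Named genes were up to 10 called genes per direction, the called members and up to 6 further members of each list in its order, the genes of the rule, and 15 leading genes of at least 50 CPM. Genes named for subgroups, co-detection, or an alternative were chosen after their values were seen, as were the list members singled out for their pool values. The limit on tumor and stromal UMIs with no Siglech was also chosen after seeing the data, and it did not count Epcam. Clustering used 1500 variable genes, 20 components, 15 neighbors, and Leiden resolution 0.7 (scanpy 1.11.5). The code was tested on simulated data. Positions are from the annotation GRCm38.p6, the assembly behind mm10. Of the genes called between preparations, 1 is not reported here. The alternatives are given in the closing section.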

Additional observations from a re-analysis of the deposited data

Results flagged for a closer look

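In the 4 pools without PancVAX, Il1r2 in type 2 dendritic cells was at 1030.28, 1039.58, and 1044.45 CPM in 3 pools and at 1459.97 CPM in the Isotype Control pool, a gap of 0.967 of the range. Among the 8 Percoll libraries, the Anti-PD-1 library had the lowest share of type 2 dendritic cells, 0.10566%, with a gap of 0.561 of the range to the next library. Chance alone sets a sample apart in this way in about 1 of 20 groups, and 2 of 46 groups of samples were set apart.

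The interaction term of edgeR for PancVAX, type 2 dendritic cells minus Ccr2 monocytes, was past the threshold for S100a8 (10.2002 on the log2 scale, adjusted P = 1.23e-04), Cxcl1 (8.97908, adjusted P = 0.015), and Ccl2 (2.92672, adjusted P = 0.03). Cxcl1 lost its call under 4 of 11 alternatives (5.92 to 10.4, edgeR adjusted P up to 0.543) and Ccl2 under 5 of 14 (1.93 to 4.92, DESeq2 adjusted P = 0.652 and edgeR up to 0.543). S100a8 was found in 2 of 306 members (0.654%), 1 barcode of the PancVAX + Anti-PD-1 pool with 39 UMIs and 1 of another pool with 1 UMI. Without these 2 cells, an alternative chosen after seeing the data, 2 genes were called, Ccl2 and Cxcl1.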

How the results depend on the processing

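The PancVAX share difference (0.0918 points) stayed positive under all alternatives, but its P value rose to 0.0571 or above with the upper limits of the study (0.0253), Cd209a of at least 1 UMI (0.110), at most 3 tumor or stromal UMIs and no Siglech (0.0731), Percoll libraries alone (0.0566), summed libraries (0.0917), or as a share of dendritic cells (4.53 points) or of Ptprc barcodes (0.1399). Without 1 pool it was 0.0628 to 0.110. The Percoll difference was -0.0871 with the upper limits (exact permutation P = 0.0313) and turned to 0.00913 with Cd209a of at least 3 UMIs, and was -0.0295 to 0.00326 without 1 pair. With Cd209a of at least 3 UMIs the ratios to type 1 cells (0.52), monocytes (1.12), and mature cells (0.62) had P = 0.0286 (exact permutation), also after adjustment. Without limits on Cd3 and C1q the type 1 class grew from 707 to 1987 barcodes. The difference in the ratio to this wider class was 0.96 (exact permutation P = 0.0286, 0.0429 after adjustment), which is not a ratio to type 1 cells as defined above. The monocyte ratio lost its P value with the upper limits (0.81), a mitochondrial limit of 5% (0.90), thinning (0.68), few tumor or stromal UMIs (0.97), Percoll alone (0.74), and summed libraries (0.89). It turned to -1.76 once barcodes beyond the Cd3 and C1q limits were counted (exact permutation P = 0.0286, adjusted 0.0429), and was 0.76 to 1.24 without 1 pool. The ratios to type 1 and mature cells were then 0.11 to 0.51 and 0.27 to 0.60, and the share differences -0.0635 to -0.0068 for anti-PD-1 and 0.0124 to 0.0697 for anti-CTLA-4.

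Numbers of called genes, from edgeR unless stated, moved as follows. Without the filter on low counts 33 genes passed for PancVAX, 33 for anti-PD-1, 23 for anti-CTLA-4, 74 for Percoll, 19 against monocytes, and 12 against type 1 cells. With the upper limits they were 9 (PancVAX), 1 (anti-PD-1), 1 (Percoll), 9 (against monocytes), and 2 (against type 1 cells). With few tumor or stromal UMIs and no Siglech they were 1, 4, 34, 6, and 8 in the same order. In Percoll libraries alone there were 5 for PancVAX (Cav1, Cavin3, Klk1, Krt8, and Siglech), 6 for anti-PD-1, Krt8 among them, and 1 for anti-CTLA-4. Krt8 was a leading gene of subgroup 5, and Siglech and Klk1 of subgroup 7. Anti-PD-1 had 2 with DESeq2, 2 without covariates, and 1 among cells with Flt3. With a mitochondrial limit of 5% there were 5 against monocytes and 2 against type 1 cells, and DESeq2 called 0 against monocytes. Leaving out 1 pool or pair gave 0 to 2 (PancVAX), 0 to 3 (anti-PD-1), 3 to 7 (Percoll), 0 to 9 (against monocytes), and 0 to 3 (against type 1 cells). Without the treatment pairing as a replicate block, 4 genes differed by preparation. S100a8 was -0.609 with the upper limits and -1.50 without the Anti-PD-1 pool. The causes were not tested.

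Of the named preparation genes, Il1r2 and Gadd45b stayed called under each alternative that gave an adjusted P value (13 and 11), Rgs1 lost its call under 1, and Bhlhe40 under 3 of 12. The limit of 3 UMIs of other cell types as planned could not be fitted. The 306 cells, 7 to 41 per library, limit what can be detected.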

Other observations

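Levels and detection of some further genes in type 2 dendritic cells are given as a description with no test, and were chosen after their values were seen. Ccr1, a chemokine receptor, was at 155 CPM in the members, 3.00 CPM in type 1 dendritic cells, 187 CPM in monocytes, and 162 CPM in macrophages. Itgam, the integrin CD11b, was at 66.9 CPM, 2.27 CPM, 189 CPM, and 135 CPM in the same order. Napsa, an aspartic protease, was found in 97.1% of members, 75.2% of type 1 and 61.7% of mature dendritic cells, 73.0% of monocytes, and 3.4% of macrophages. Cd7 was found in 54.9%, 4.1%, 3.1%, 9.5%, and 0.3% of these classes. Csf1r, the receptor that macrophages depend on, was at 49.8 CPM in the members and 563 CPM in macrophages. A Csf1r UMI was found in 33.7% of members, 3.0% of type 1 and 3.4% of mature dendritic cells, 70.2% of monocytes, and 78.5% of macrophages. Traf1 was at 169 CPM in the members and 703 CPM in mature dendritic cells.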
